A study of Mus musculus with 7 samples.

Results

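The genes described here are the nuclear receptors of the mouse other than the COUP-TF subfamily, with the estrogen-related receptor gene Esrrg in the lead. Of 40 receptor genes named by symbol, 38 had a probe set that the platform annotation gives to that gene alone, 1 probe set each, out of 35468 probe sets on the array. Of these 38, 35 were bright enough to be tested among 16144 genes, and 3 were dim. Nr1h2 and Nr2e3 had no such probe set and were not analysed here. RNA came from mouse whole neocortex of strain C57BL/6, 0.2 µg per sample with an RNA integrity number of 10, on 1 one-colour Affymetrix array per sample. The 4 CKO samples (CKO 1, CKO 4, CKO 34 and CKO 43) carried the genotype COUP-TFI_Nex-Cre, and the 3 WT samples (WT 6, WT 27 and WT 38) were labelled wild type. COUP-TFI is the product of Nr2f1, itself an orphan nuclear receptor, and Nex-Cre is expressed from the Neurod6 locus in postmitotic glutamatergic neurons, so other cell types of the tissue are not expected to recombine. The labels give neither the floxed alleles, nor whether the wild type samples carried Cre, nor the age. They do not say that the arrays came from separate animals, so the p-values cover only the variation among these 7 samples, some of which may be technical. The comparison asks which receptor genes change their neocortical signal in CKO.

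Nuclear receptors are transcription factors that join a zinc-finger DNA-binding domain to a ligand-binding domain. Many bind direct or inverted repeats of a hexamer, AGGTCA in its commonest form, as homodimers or as partners of a retinoid X receptor, and some bind a single extended copy as monomers. Hormones, vitamins and lipids switch the liganded members, which exchange corepressors for coactivators, while orphan members act without a known natural ligand. In the developing neocortex, thyroid hormone and retinoid receptors act in neuron maturation, tailless (Nr2e1) maintains progenitors, and COUP-TFI patterns the cortical areas.

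All values are log2 signals made by the authors with RMA, and differences are CKO minus WT. An RMA signal depends on the probe set, so levels of different genes are not compared. Among defining markers of neocortical excitatory neurons, 9 of 10 were tested, and their log2 signals lay between 10.33 and 13.23 over the 7 arrays, above the filter on dim signals at 6.84 on each array. The deleted gene Nr2f1 read 10.63, 10.79, 10.60 and 10.70 on CKO 1, CKO 4, CKO 34 and CKO 43, against 11.08, 11.16 and 10.88 on WT 6, WT 27 and WT 38, a difference of -0.36 (SE 0.074, limma adjusted p 0.435). Whether its probe set lies in the deleted part is not known here. The identifiers of the arrays in the labels begin alike in 3 sets, whose meaning is not stated: CKO 1 with CKO 4, then CKO 34, CKO 43, WT 27 and WT 38, and WT 6 alone. WT 38 stood apart from the other 6 arrays on the first principal component of the 16144 genes, at 15.2 against -7.0 to 1.8.

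No nuclear receptor gene passed the test across all genes. With limma, 0 of the 35 tested had an adjusted p under 0.05 (0.0248% of all genes tested had), and the lowest adjusted p among them was 0.711. At an unadjusted p under 0.05 there were 4 (6.79% of all genes), all higher in CKO (4.17% of all genes were higher and 2.61% lower at that p): Esrrg, Nr2e1, Rara and Nr0b2. For 3 genes, Esrrg, Nr0b2 and Nr5a1, each CKO array lay above each WT array (5.39% of all genes), and no member had the opposite order (2.99%). The differences of the 35 genes had a median of 0.03, beside 0.01 over all genes tested, and 24 were positive (68.6%, beside 58.9% of all genes). Their median absolute difference was 0.06 (0.05 over all genes), and 27 lay within 0.1 of zero. In either direction 8.38% of all genes had separate groups, close to the 8.57% that 3 of 35 makes. Both counts, and the shares over all genes, depended on the arrays used. At an unadjusted p under 0.05 there were 2 receptors without CKO 1 (4.94% of all genes), 1 without WT 6 (6.58%), 2 without WT 38 (10.9%) and 6 without WT 27 (10.8%). Receptors with separate groups numbered 11 without WT 27 (31.4%, beside 23.2% of all genes), 6 without CKO 34 and 6 without WT 38 (17.1%, beside 13.0% and 22.2% of all genes), and 5 without CKO 43 and 5 without WT 6 (14.3%, beside 10.9% and 17.8%).

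**Figure D1:**
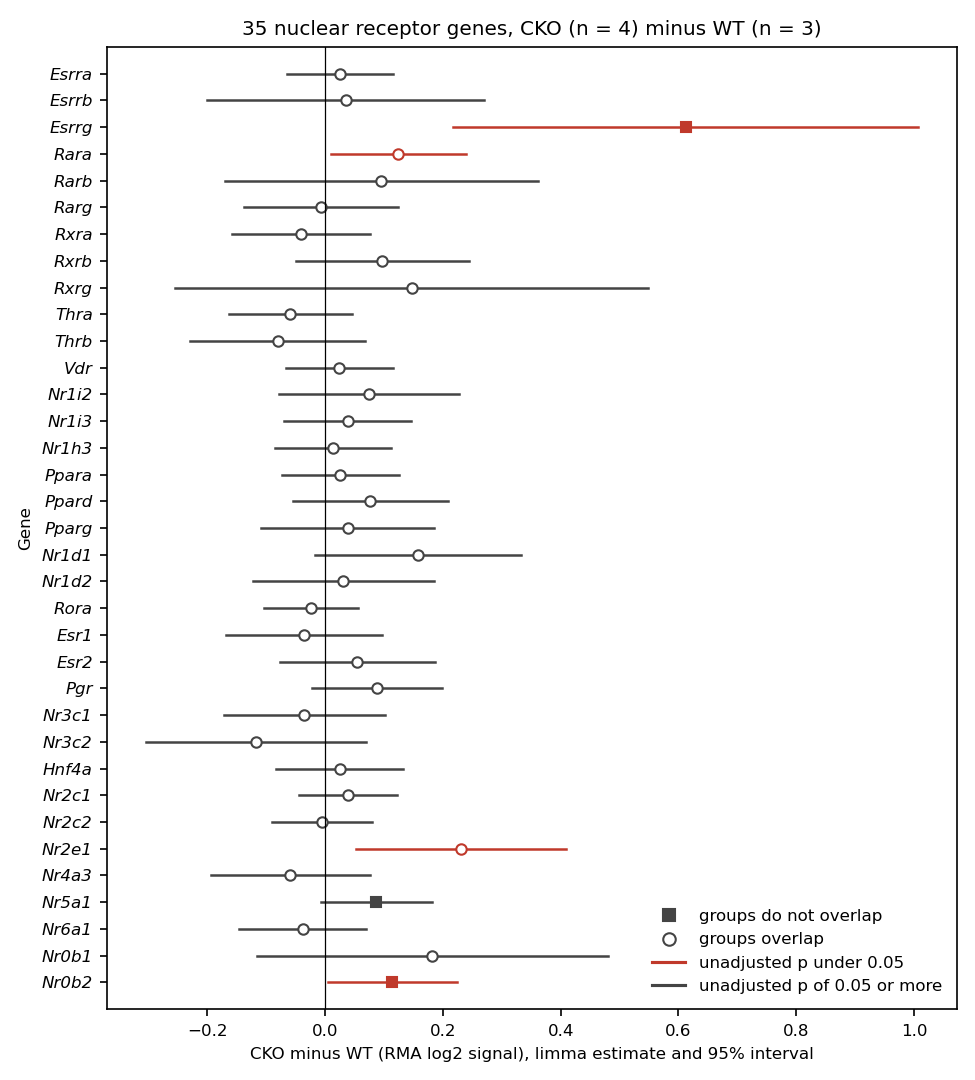
Difference between CKO and WT in RMA log2 signal (x axis) for each of the 35 nuclear receptor genes tested (y axis), as limma estimate and 95% interval; squares mark genes whose groups do not overlap, and red marks an unadjusted p under 0.05. Esrrg lies at 0.61, the next largest difference is 0.23 for Nr2e1, and the lowest is -0.12 for Nr3c2.

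The precision differed between the receptors. The 95% interval of the difference was narrowest for Rora, 0.161 wide, and widest for Rxrg, 0.804 wide, with a median width of 0.263. For 21 of the 35 genes it lay wholly within 0.2 of zero, and for 28 within 0.3, so larger differences in signal lay outside the interval for these. Some of them had signals just above the filter on dim signals. Nr1i3 had a mean of 6.90 in CKO and 6.86 in WT, and Vdr 6.98 and 6.95. With the filter at the 50th percentile, 17 receptors were tested. No measure of signal over background was used, so a narrow interval on a dim probe set does not exclude a larger change in RNA. The number of arrays limits the precision of all receptors. Over the 35 genes, the highest array was CKO 1 for 11 and WT 27 for 9, and the lowest was WT 6 for 11 and WT 38 for 9. Centred on the 7-array mean of each gene and averaged over the 35, the CKO arrays lay between 0.01 and 0.06, WT 6 and WT 38 at -0.05 each and WT 27 at 0.00. This order rested on Esrrg. Without it, the average was 0.0549 on CKO 1, 0.0212 on CKO 4, -0.00494 on CKO 34 and -0.004 on CKO 43. WT 27, at 0.0204, then lay above CKO 34 and CKO 43.

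Esrrg had the largest difference of the 35 receptor genes tested, without passing the adjusted test. It encodes ERRγ, an orphan receptor that activates genes of mitochondrial oxidative metabolism and is active without an added ligand. Its probe set, 10352576, read 8.79, 8.41, 8.98 and 9.08 on CKO 1, CKO 4, CKO 34 and CKO 43, against 8.41, 7.89 and 8.30 on WT 6, WT 27 and WT 38. The groups did not overlap, but only by 0.0031 between CKO 4, the lowest CKO array, and WT 6, the highest WT array. The mean was 8.81 ± 0.29 in CKO and 8.20 ± 0.27 in WT (SD, n = 4 and 3), a signal 1.53-fold higher in CKO. The difference of 0.61 (SE 0.172, 95% interval 0.22 to 1.01) had an unadjusted p of 0.00704 and an adjusted p of 0.711 with limma, and did not pass. The two-sided exact permutation test over the 35 splits of the 7 arrays gave a p of 0.0571, where 0.0286 is the smallest possible. Nr2e1, Nr5a1 and the dim gene Nr5a2 had the same p in this permutation test, and no receptor had a lower one. By size of the difference Esrrg was 23rd of 16144 genes, and by p-value 154th. Esrrg was singled out with this difference known, so neither rank is independent evidence. In a tissue sample, more cells of a type and more RNA per cell cannot be told apart.

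Several markers of the striatum, which lies beneath the neocortex, shared the lowest arrays of Esrrg. Isl1, a LIM homeobox gene of striatal neurons, read 8.86, 7.74, 8.70 and 8.73 on CKO 1, CKO 4, CKO 34 and CKO 43, against 7.91, 7.23 and 7.89 on WT 6, WT 27 and WT 38. Six3, a homeobox gene of the same lineage, read 8.52, 7.96, 8.46 and 8.41 on the CKO arrays and 7.98, 7.48 and 8.06 on the WT arrays, both in the order used for Isl1. Ebf1, a transcription factor of striatal projection neurons, read 9.77, 9.53, 10.47 and 9.90 on the CKO arrays and 9.18, 8.87 and 9.34 on the WT arrays. For Esrrg, Isl1, Six3 and Ebf1 alike, CKO 4 was the lowest CKO array and WT 27 the lowest WT array. The same held for the dopamine receptor gene Drd2, but not for the neuropeptide gene Penk, lowest on CKO 43 and WT 38. The highest array differed: CKO 43 for Esrrg, CKO 1 for Isl1 and Six3, and CKO 34 for Ebf1. Of 13 striatal markers 11 were tested, all with a positive difference (58.9% of all genes tested), 6 at an unadjusted p under 0.05 (6.79% of all) and 0 past the adjusted limma test, with a median of 0.21 (0.01 over all). The same shares over all genes apply to the counts of each pathway and marker list. Centred on the 7-array mean of each gene, the list averaged -0.06 to 0.28 on the CKO arrays and -0.27 to -0.11 across the WT arrays. Averaged in the same way, inhibitory interneuron markers were also lowest on CKO 4 within CKO (-0.235) and on WT 27 within WT (-0.0646). Whether the striatal and interneuron lists mark separate cells was not tested. With the mean signal of Isl1, Six3, Ebf1, Drd2 and Penk as a covariate, the Esrrg difference was 0.13 (SE 0.158, unadjusted limma p 0.435). The genes of this covariate themselves had higher means in CKO: Isl1 by 0.83, Ebf1 by 0.79, Six3 by 0.50, Penk by 0.28 and Drd2 by 0.21. The covariate thus differed with genotype, so this fit cannot separate striatal signal from genotype. The part of striatal signal in the Esrrg difference was not tested.

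**Figure D2:**
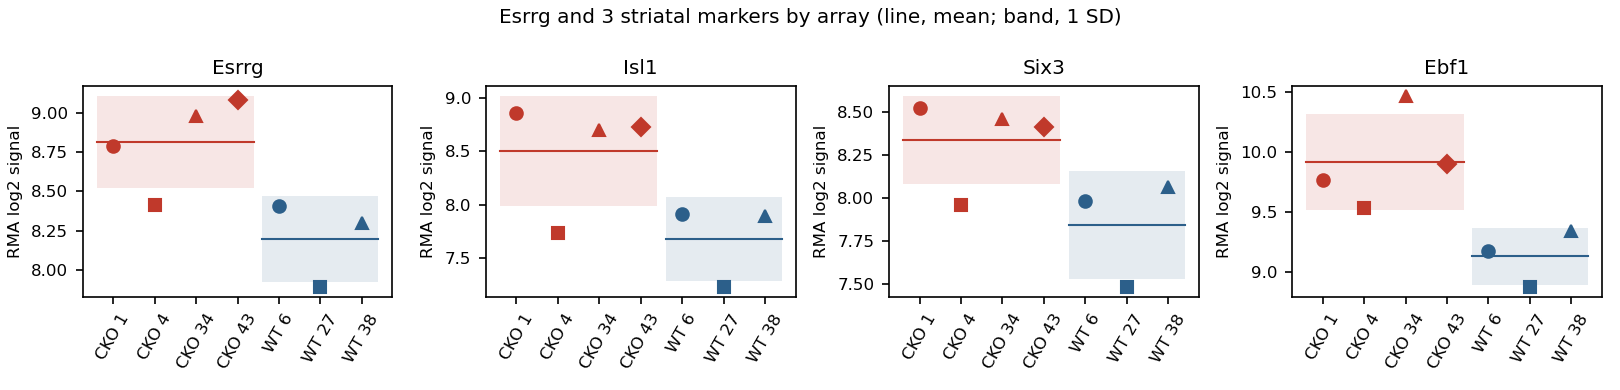
RMA log2 signal (y axes, which do not start at 0) of Esrrg and of the striatal markers Isl1, Six3 and Ebf1 on the 4 CKO and 3 WT arrays (x axes); lines are group means and bands 1 SD. CKO 4 (8.41 for Esrrg) is the lowest CKO array and WT 27 (7.89) the lowest WT array in each panel.

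The size of the Esrrg difference also depended on which arrays were set against each other. It ran from 0.46 without WT 27 to 0.75 without CKO 4 when each array was left out in turn, with unadjusted limma p-values of 0.0331 and 0.000847 in these fits. Among CKO 34, CKO 43, WT 27 and WT 38, the set of like identifiers with both genotypes, it was 0.93 (SE 0.15), or 1.90-fold, with an adjusted limma p of 0.999 over all genes. This set holds the lowest WT array, WT 27, but not the lowest CKO array, CKO 4. With cyclic loess between arrays the difference was 0.60 and the groups overlapped.

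**Figure D3:**
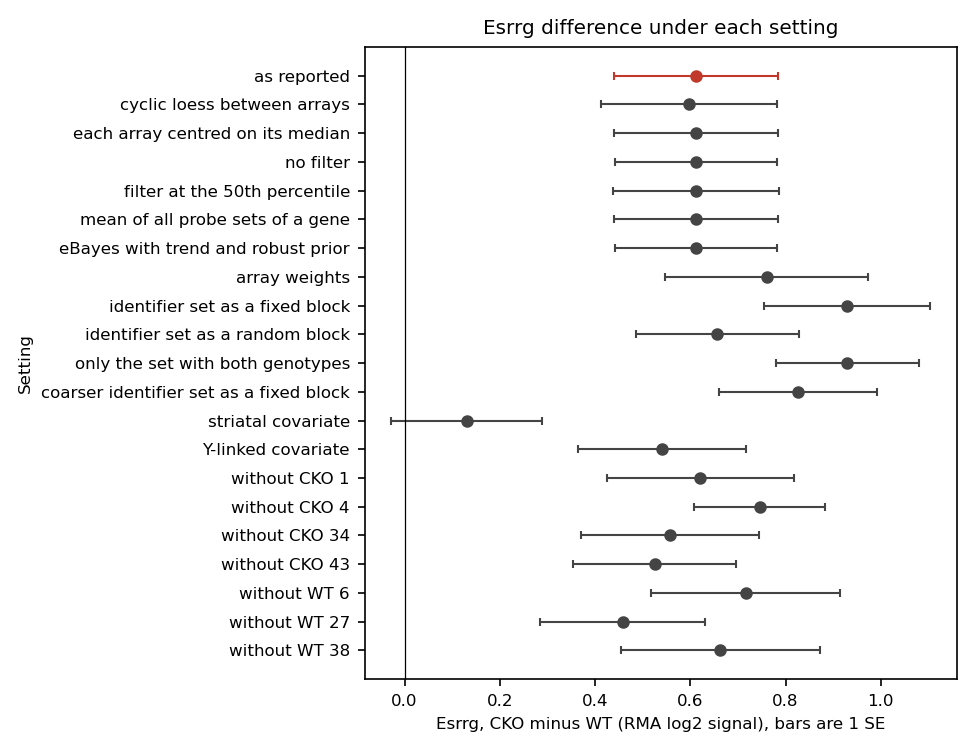
Esrrg difference between CKO and WT in RMA log2 signal (x axis, bars are 1 SE) as reported and under each alternative setting (y axis). All estimates are positive; the lowest is 0.13 with the striatal covariate and the highest 0.93 with the identifier sets as a fixed block or within the set that holds both genotypes.

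The other estrogen-related receptors differed by less than their error. Esrra, which encodes the widely expressed ERRα, had 9.28 ± 0.04 in CKO and 9.26 ± 0.04 in WT (SD, n = 4 and 3), a difference of 0.03 (SE 0.039, adjusted limma p 0.881). Esrrb, whose product ERRβ acts in pluripotent cells and the placenta, differed by 0.03 (SE 0.103, adjusted limma p 0.947), with CKO 34 at 6.98 and CKO 1 at 7.47 at the ends of its range. Genes known as targets of estrogen-related receptors, most of them of oxidative metabolism, showed no called change. Of 22 such targets 19 were tested, the receptor gene Esrra itself among them, and 0 had an adjusted or unadjusted limma p under 0.05. Their differences ran from -0.09 to 0.09, with a median of 0.01. The smallest p-values belonged to the potassium channel gene Kcnk1 (0.06, SE 0.047), the channel subunit gene Kcne2 (0.04, SE 0.041) and the mitochondrial ADP/ATP carrier gene Slc25a4 (0.04, SE 0.041). Nuclear receptors act through shared coactivators and corepressors, of which 18 of 20 were tested. With limma 0 passed the adjusted test and 1 had an unadjusted p under 0.05. This was Ncoa1, the coactivator SRC-1, at 11.36 in CKO and 11.49 in WT, a difference of -0.13 (SE 0.045) with no overlap between the groups. The corepressor gene Nrip1 differed by 0.17 (SE 0.088) and the Mediator subunit gene Med1 by 0.04 (SE 0.035), and the list had a median of 0.02.

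COUP-TFs and many other nuclear receptors bind AGGTCA, and estrogen-related receptors prefer the extended form TCAAGGTCA, so the promoters of the receptor genes were searched for these letters. RefSeq promoter windows (GRCm38.p6, 250 bases before to 50 after each start) were found for 36 of the 40 genes, 55 windows in all. AGGTCA stood on either strand in 12 of the 55 windows (21.8%), of 11 genes, beside 16.3% of 32851 windows of all genes. TCAAGGTCA, which holds AGGTCA, was in 0 of the 55 and 0.423% of all windows. The direct repeat of AGGTCA with 1 base between, which holds AGGTCA on both sides, was in 0 of the 55 and 0.0396% of all. Esrrg has 4 windows, none with AGGTCA; its first and last are given because the gene's starts lie far apart and the array does not tell them apart. Rxrg is given as a receptor with a match, which stands in capitals 88 bases before the start. Each sequence is the 250 bases before the start, read 5′ to 3′ on the gene's strand, and a match is a description of the letters alone.
Esrrg (chr1:187608756-187609005, plus strand): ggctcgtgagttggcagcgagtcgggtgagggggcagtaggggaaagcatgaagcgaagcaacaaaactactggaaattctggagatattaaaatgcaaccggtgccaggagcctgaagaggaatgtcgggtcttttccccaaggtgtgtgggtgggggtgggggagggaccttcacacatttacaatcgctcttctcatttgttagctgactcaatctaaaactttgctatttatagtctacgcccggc
Esrrg (chr1:187997577-187997826, plus strand): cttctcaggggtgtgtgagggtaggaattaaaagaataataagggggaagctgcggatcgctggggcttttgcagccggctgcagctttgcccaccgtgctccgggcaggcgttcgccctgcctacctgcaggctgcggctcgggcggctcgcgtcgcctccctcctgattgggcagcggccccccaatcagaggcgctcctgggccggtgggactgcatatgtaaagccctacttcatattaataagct
Rxrg (chr1:167618015-167618264, plus strand): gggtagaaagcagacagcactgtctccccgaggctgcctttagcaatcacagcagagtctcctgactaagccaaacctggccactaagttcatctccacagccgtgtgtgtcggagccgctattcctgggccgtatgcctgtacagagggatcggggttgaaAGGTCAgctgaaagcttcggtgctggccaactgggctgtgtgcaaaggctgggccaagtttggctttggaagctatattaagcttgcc

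No retinoic acid receptor gene passed the adjusted test. Rara, which encodes a receptor for all-trans retinoic acid, read 8.99, 8.90, 8.95 and 9.00 on CKO 1, CKO 4, CKO 34 and CKO 43, against 8.77, 8.93 and 8.80 on WT 6, WT 27 and WT 38. WT 27 lay above CKO 4, so the groups overlapped. The means were 8.96 ± 0.05 in CKO and 8.83 ± 0.08 in WT (SD, n = 4 and 3), a difference of 0.12 (SE 0.050, unadjusted p 0.0360, adjusted p 0.726 with limma). Rarg differed by -0.01 (SE 0.057). Rarb, a receptor of developing striatal neurons that retinoic acid itself induces, read 7.67, 7.66, 7.98 and 7.64 on the CKO arrays, against 7.55, 7.49 and 7.89 on the WT arrays, in the same array order. CKO 34 and WT 38 stood above the others of their groups, and the difference was 0.10 (SE 0.116).

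Retinoid X receptors are the dimer partners of many other members. Rxrg, the member enriched in striatum, read 7.84, 7.73, 8.29 and 7.39 on CKO 1, CKO 4, CKO 34 and CKO 43, against 7.74, 7.61 and 7.65 on WT 6, WT 27 and WT 38. The CKO arrays held both the highest and the lowest value, with an SD of 0.37 in CKO and 0.06 in WT, and the difference of 0.15 (SE 0.175) lay within that spread. CKO 34 was also the highest array for the striatal neuropeptide gene Penk, at 8.87, while the remaining CKO arrays spanned 8.31 to 8.36 and the WT arrays 7.98 to 8.36. The dopamine receptor gene Drd2 likewise peaked on CKO 34, at 8.89, while the remaining CKO arrays spanned 8.16 to 8.58 and the WT arrays 8.20 to 8.46. Not every striatal marker peaked there. Ebf1 was highest on CKO 34 too, at 10.47. Isl1 and Six3 were highest on CKO 1, at 8.86 and 8.52, and Zfp503 on CKO 43, at 8.95. Over all alternative settings, 1 of them with the striatal covariate, the difference ran from -0.14 to 0.22 for Rarb and -0.16 to 0.29 for Rxrg. The part of Drd2 and Penk in the values of these receptors was not tested on its own. Rxra differed by -0.04 (SE 0.051). Rxrb differed by 0.10 (SE 0.064); WT 6 was its lowest array, at 10.10, and the other 6 lay between 10.31 and 10.38.

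**Figure D4:**
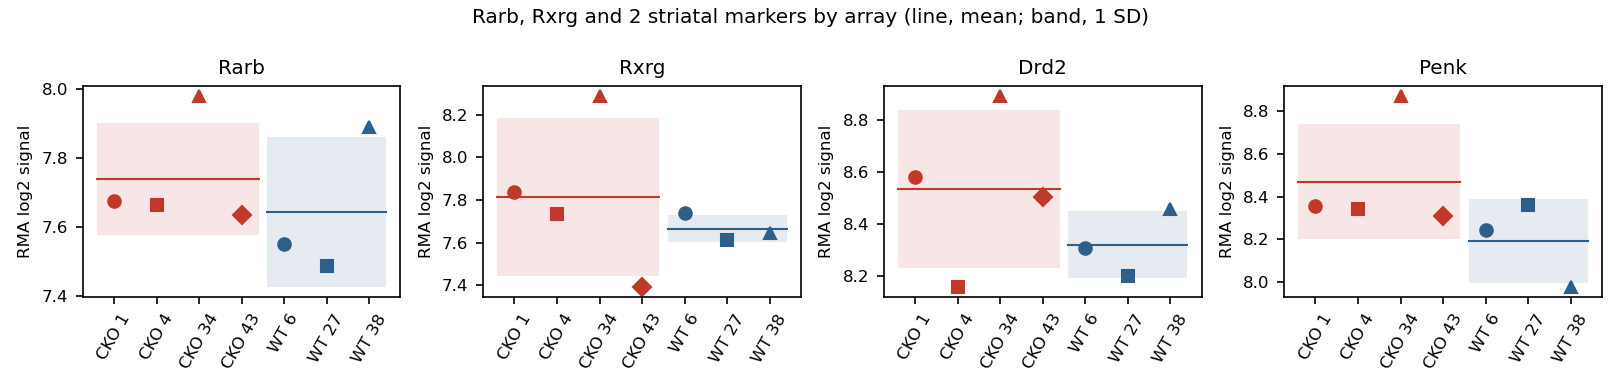
RMA log2 signal (y axes, which do not start at 0) of the retinoid receptor genes Rarb and Rxrg and of the striatal markers Drd2 and Penk on the 4 CKO and 3 WT arrays (x axes); lines are group means and bands 1 SD. CKO 34 is the highest array in all 4 panels, at 7.98, 8.29, 8.89 and 8.87. The striatal markers Isl1 and Six3, not drawn here, are highest on CKO 1.

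Genes that respond to retinoic acid had 8 of 10 members tested, 6 of them with a positive difference and a median of 0.12. Among these 6 were the receptor gene Rarb and the corepressor gene Nrip1, both given above. With limma 0 passed the adjusted test and 2 had an unadjusted p under 0.05. Tgm2, a transglutaminase gene, had 7.94 in CKO and 7.72 in WT, a difference of 0.22 (SE 0.053, adjusted p 0.655 with limma). Stra6, the membrane receptor for retinol-binding protein, had 9.07 in CKO and 8.88 in WT, a difference of 0.19 (SE 0.072, adjusted p 0.723 with limma). The groups did not overlap for either. Cyp26b1, which breaks down retinoic acid, differed by 0.12 (SE 0.055) with overlap.

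Thyroid hormone receptor genes both had small negative differences. Thrb read 7.37, 7.35, 7.17 and 7.33 on CKO 1, CKO 4, CKO 34 and CKO 43, against 7.41, 7.47 and 7.27 on WT 6, WT 27 and WT 38. The groups overlapped through WT 38, and the difference was -0.08 (SE 0.065). Thra, the main thyroid hormone receptor gene of the brain, had 13.26 ± 0.06 in CKO and 13.32 ± 0.03 in WT (SD, n = 4 and 3), a difference of -0.06 (SE 0.046). Its 3′ end overlaps that of Nr1d1 on the opposite strand, and the place of either probe set is not given in the files. Of 14 thyroid hormone response and transport genes 12 were tested; with limma 0 passed the adjusted test and 1 had an unadjusted p under 0.05. This was Camk4, a calcium/calmodulin-dependent kinase gene, at 9.05 in CKO and 9.17 in WT, a difference of -0.13 (SE 0.041) with no overlap. Cbr2 (0.06, SE 0.037) and Dio3, the deiodinase that inactivates thyroid hormone (0.12, SE 0.101), came next, and the list had a median of 0.01.

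Receptors for vitamin D, xenobiotics and lipids did not pass either. Nr1i2, the xenobiotic receptor PXR, read 7.34, 7.41, 7.27 and 7.29 on CKO 1, CKO 4, CKO 34 and CKO 43, against 7.31, 7.35 and 7.10 on WT 6, WT 27 and WT 38. WT 38 alone lay below the CKO range, and the difference was 0.08 (SE 0.067). Nr1i3, the related receptor CAR, differed by 0.04 (SE 0.047), and Vdr, the vitamin D receptor, by 0.02 (SE 0.040). Nr1h3, the oxysterol receptor LXRα, spanned 7.96 to 8.04 in CKO and 7.92 to 8.03 in WT, and its groups overlapped almost wholly (0.01, SE 0.043). LXR targets, genes of cholesterol export and lipid synthesis, were tested for all 12 members, of which 9 had a positive difference and 0 an adjusted or unadjusted limma p under 0.05. Their median was 0.06, and Abcg8 (0.18, SE 0.102), Mylip (0.07, SE 0.042) and Scd1 (0.18, SE 0.119) had the smallest p-values.

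Peroxisome proliferator-activated receptors sense fatty acids. Ppard, the member most widely expressed in brain, read 10.30, 10.25, 10.16 and 10.30 on CKO 1, CKO 4, CKO 34 and CKO 43, against 10.09, 10.15 and 10.29 on WT 6, WT 27 and WT 38. WT 38 lay within the CKO range, and the difference was 0.08 (SE 0.057). Ppara, a regulator of fatty acid oxidation, differed by 0.03 (SE 0.043) and Pparg, the regulator of fat cell formation, by 0.04 (SE 0.064). Of 12 PPAR target genes 8 were tested; with limma 0 passed the adjusted test and 1 had an unadjusted p under 0.05. This was Lpl, the lipoprotein lipase gene, at 9.63 in CKO and 10.18 in WT. Its difference of -0.55 (SE 0.076, adjusted p 0.134 with limma), with no overlap, was of the opposite sign to that of most of the list. Cpt1a differed by 0.12 (SE 0.064) and Plin2 by 0.06 (SE 0.051), and the median was 0.01.

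Nr1d1, which encodes the clock repressor REV-ERBα, read 9.99, 9.97, 10.03 and 10.00 on CKO 1, CKO 4, CKO 34 and CKO 43, against 9.68, 10.03 and 9.82 on WT 6, WT 27 and WT 38. The 4 CKO arrays lay close together, and WT 27 lay above all of them while WT 6 and WT 38 lay below. The means were 10.00 ± 0.02 in CKO and 9.84 ± 0.18 in WT (SD, n = 4 and 3), a difference of 0.16 (SE 0.076, unadjusted p 0.0708, adjusted p 0.727 with limma). Nr1d2, the paralog REV-ERBβ, differed by 0.03 (SE 0.067), and Rora, which acts on the same DNA elements as an activator, by -0.02 (SE 0.035). Of 15 clock genes 13 were tested, with a median of 0.04. With limma 0 passed the adjusted test and 1 had an unadjusted p under 0.05, and 3 had no overlap between groups (8.38% of all genes tested). Ciart, a clock repressor gene, had 8.29 in CKO and 8.01 in WT, a difference of 0.27 (SE 0.116). Dbp, a clock output transcription factor, read 9.52, 9.53, 9.53 and 9.59 on the CKO arrays and 9.48, 9.49 and 9.31 on the WT arrays, a difference of 0.12 (SE 0.053). Hlf, of the same family as Dbp, differed by 0.15 (SE 0.072). Averaged per array in the same way as the receptors, the clock list lay at 0.01 to 0.06 on the CKO arrays, with WT 27 inside that range at 0.04 and WT 38 lowest at -0.10. No label gives the time of day of collection.

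Nr2e1, which encodes tailless, a receptor that keeps neural progenitors undifferentiated, read 11.40, 11.54, 11.34 and 11.44 on CKO 1, CKO 4, CKO 34 and CKO 43. It read 11.10, 11.38 and 11.12 on WT 6, WT 27 and WT 38. WT 27 lay above CKO 34, and the other 2 WT arrays lay below every CKO array. The means were 11.43 ± 0.08 in CKO and 11.20 ± 0.16 in WT (SD, n = 4 and 3), a signal 1.17-fold higher in CKO. The difference of 0.23 (SE 0.078, 95% interval 0.05 to 0.41) had an unadjusted p of 0.0172 and an adjusted p of 0.711 with limma, and the exact permutation test, two-sided, gave a p of 0.0571. Of the markers of radial glia and astrocytes, all 10 were tested and had positive differences (58.9% of all genes), 2 at an unadjusted p under 0.05 (6.79% of all genes) and 0 past the adjusted limma test, with a median of 0.14. Centred on the 7-array mean of each gene, the list averaged 0.02 to 0.09 on the CKO arrays and -0.04, -0.07 and -0.11 on WT 6, WT 27 and WT 38. WT 6, the highest WT array for the list, was the lowest for Nr2e1. Sox2, a transcription factor of neural progenitors, had 11.89 in CKO and 11.68 in WT, a difference of 0.20 (SE 0.048). Sox9 differed by 0.16 (SE 0.063) and Pax6 by 0.13 (SE 0.064). For Sox2 the highest WT array was WT 27, at 11.73, as for Nr2e1, unlike for the list as a whole. The part of these cells in the Nr2e1 difference was not tested. Nr2c1 and Nr2c2, the testicular receptors TR2 and TR4, differed by 0.04 (SE 0.036) and -0.01 (SE 0.037).

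**Figure D5:**
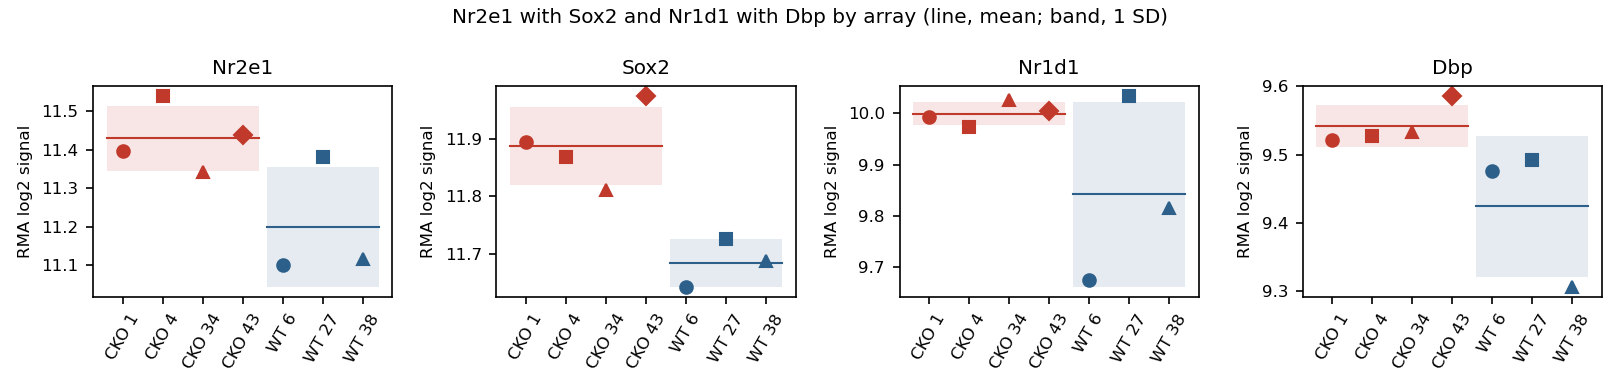
RMA log2 signal (y axes, which do not start at 0) of Nr2e1 with the progenitor marker Sox2 and of Nr1d1 with the clock output gene Dbp on the 4 CKO and 3 WT arrays (x axes); lines are group means and bands 1 SD. For Nr2e1 and Nr1d1, WT 27 (11.38 and 10.03) lies within or above the CKO range and WT 6 (11.10 and 9.68) is the lowest array.

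Steroid receptors had differences in both directions, none of which passed the adjusted test. Nr3c2, the mineralocorticoid receptor, read 7.45, 7.19, 7.50 and 7.52 on CKO 1, CKO 4, CKO 34 and CKO 43, against 7.49, 7.50 and 7.61 on WT 6, WT 27 and WT 38. CKO 4 lay below all other arrays, and the difference of -0.12 (SE 0.082) was the most negative of the 35 receptors. Nr3c1, the glucocorticoid receptor, had 8.43 ± 0.03 in CKO and 8.46 ± 0.13 in WT (SD, n = 4 and 3), a difference of -0.03 (SE 0.059). The estrogen receptor genes Esr1 and Esr2 differed by -0.04 (SE 0.058) and 0.06 (SE 0.057), and the progesterone receptor gene Pgr by 0.09 (SE 0.048, adjusted p 0.739 with limma). Of 14 glucocorticoid response genes 12 were tested, with a median of -0.02. With limma 0 passed the adjusted test and 1 had an unadjusted p under 0.05. This was the metallothionein gene Mt2, at 11.93 in CKO and 11.52 in WT, a difference of 0.41 (SE 0.120), and its neighbour Mt1 differed by 0.19 (SE 0.095). Both were lowest on WT 38, Mt2 at 11.20 and Mt1 at 9.67. Fkbp5, a chaperone of the glucocorticoid receptor that the receptor itself induces, differed by -0.17 (SE 0.074), so the 3 genes of the list with the smallest p-values differed in direction.

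Among the remaining orphan receptors, 2 had groups that did not overlap. Nr0b2, the corepressor SHP, which lacks a DNA-binding domain, read 6.99, 7.04, 6.89 and 6.90 on CKO 1, CKO 4, CKO 34 and CKO 43, against 6.82, 6.85 and 6.85 on WT 6, WT 27 and WT 38. The difference was 0.11 (SE 0.048, unadjusted p 0.0419, adjusted p 0.726 with limma), on a probe set just above the filter on dim signals at 6.84. Nr5a1, the steroidogenic factor SF-1 of adrenal and gonad, read 8.37, 8.32, 8.25 and 8.27 on the CKO arrays, against 8.22, 8.20 and 8.22 on the WT arrays, in the same array order. CKO 34, the lowest CKO array, lay close to the WT arrays, and the difference was 0.09 (SE 0.041, unadjusted p 0.0645 with limma). Nr0b1, the corepressor DAX1, read 7.74, 7.75, 7.63 and 7.75 on the CKO arrays and 7.52, 7.87 and 7.22 on the WT arrays, in that order. The CKO arrays lay within the range of the WT arrays, with an SD of 0.06 in CKO and 0.33 in WT, and the difference was 0.18 (SE 0.130). Nr4a3, the activity-induced receptor NOR-1, differed by -0.06 (SE 0.059), and Nr6a1, the germ cell nuclear factor, by -0.04 (SE 0.047). Hnf4a, a receptor of liver and gut epithelium, read 7.92, 8.02, 7.87 and 7.88 on the CKO arrays and 7.90, 7.86 and 7.93 on the WT arrays, and its groups overlapped (0.02, SE 0.047).

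The 3 dim receptor genes lay below the filter, at mean log2 signals between 6.19 and 6.64, and were not counted among those tested. In a fit without the filter, the bile acid receptor gene Nr1h4 differed by 0.07 (SE 0.048), Hnf4g by 0.06 (SE 0.050) and Nr5a2, the receptor LRH-1, by 0.11 (SE 0.051). Their groups overlapped, and none had an adjusted limma p under 0.05 or an unadjusted one.

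Markers of other cells that whole neocortex can hold are given by list; with limma no member passed the adjusted test in any of these lists, and 6.79% of all genes had an unadjusted p under 0.05. Neocortical excitatory neuron markers had a median of 0.04 and 2 of 9 at an unadjusted p under 0.05, Bcl11b (0.15, SE 0.040) and Tbr1 (0.14, SE 0.057), while Cux2 differed by -0.09 (SE 0.066). Inhibitory interneuron markers had a median of 0.12 and 3 of 9 at that p: Npy (-0.51, SE 0.064), Htr3a (-0.60, SE 0.166) and Dlx2 (0.51, SE 0.178). Dlx2 was lowest on CKO 4 within CKO, at 10.97, and on WT 27 within WT, at 10.74, as Isl1 was. Which cells carried these signals was not tested. Meningeal and choroid plexus markers had a median of 0.22 and 3 of 9, Slc6a13 (0.22, SE 0.064), Col1a2 (0.33, SE 0.104) and Col1a1 (0.31, SE 0.119). Microglia had a median of 0.01 and 1 of 9, Aif1 (-0.36, SE 0.110), and thalamus a median of 0.07 and 1 of 8, Plekhg1 (0.22, SE 0.056). Endothelial and mural cells (median 0.03, 10 tested), the oligodendrocyte lineage (0.05, 7 tested) and red blood cells (0.41, 2 tested) had 0 at that p with limma. The embryonic globin gene Hbb-y differed by 0.75 (SE 0.449), and the red blood cell list spanned -0.07 to 0.49 on the CKO arrays and was lowest on WT 38, at -0.87, when centred on the 7-array mean.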

How the data were processed

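RNA of 4 CKO and 3 WT neocortex samples was measured on 1 array each. The deposited values are log2 signals; per the submitters' processing notes, the authors ran RMA in Affymetrix Expression Console, with no version or genome build named there. Array medians were 8.23.

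Probe sets were named from the platform annotation (21786 with 1 symbol, 1621 with several, 12061 with none; only the first kind was named). All 38 receptors matched the RefSeq table by Entrez identifier. The brightest probe set stood for each gene, and genes whose mean lay under the 25th percentile of all probe sets (6.84) were dropped, leaving 16144. CKO was compared with WT by limma 3.58.1 in R 4.3.3 (lmFit and eBayes without a covariate; 5 residual and 3.28 prior degrees of freedom) with Benjamini-Hochberg adjustment at 0.05 over all genes; SE and 95% intervals are limma's. Single genes also had the exact permutation test over 35 splits. The fit was run on simulated data with independent noise and added differences. This checked the size of difference recovered, but not the effect of the identifier sets or of an outlying array. Figures were drawn with matplotlib 3.10.9.

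The receptors, the 8 pathway and 10 marker lists and the choice of Esrrg were made with earlier results of these data known. Receptors given by array are Esrrg, those with an unadjusted p under 0.05 or no overlap, the largest difference in each receptor group and, chosen after its values were seen, Rarb; of each list, up to 3 genes with the smallest p are named. Other genes given by array were chosen with values known. Alternatives were another normalization, filter, probe set rule, variance model, array weights, the array identifier sets, covariates of striatal and Y-linked signal, a threshold of 0.1 and leaving out each array.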

Additional observations from a re-analysis of the deposited data

Results flagged for a closer look

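Within the 4 CKO arrays, 1 array lay far from the other 3 for 3 of 38 receptor genes, by Dixon's ratio of the gap to the range; chance gives about 1 in 20 groups. It was CKO 34 each time. Rarb was at 7.98 on CKO 34 and between 7.64 and 7.67 on the other CKO arrays. Nr2c1 was at 9.60 on CKO 34, against 9.64 to 9.65 on the others, a gap small in size. Nr0b1 was at 7.63 on CKO 34, against 7.74 to 7.75 on the others. The WT group, with 3 arrays, was not tested in this way.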

How the results depend on the processing

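No paired analysis was possible because the 2 groups share no replicate number. No receptor gene passed limma's adjusted test under any of the 14 alternatives or with any of the 7 arrays left out, where 1 to 6 receptors had an unadjusted p under 0.05. Over all genes, 4 passed as reported, 1 with cyclic loess, array weights, the 2 coarser identifier sets (CKO 1 and CKO 4 against the other 5 arrays) as a fixed block, or the Y-linked covariate, and 0 with limma in 3 settings: the 3 identifier sets as a fixed block, the set with both genotypes alone, and the striatal covariate, where 611, 486 and 1799 genes had an unadjusted p under 0.05. Leaving out each array gave 1 to 6 genes, with 6 without CKO 1 and 1 without any other array. The Esrrg difference stayed positive throughout, from 0.46 to 0.75 with an array left out, and from 0.13 with the striatal covariate to 0.93 within the set with both genotypes; its adjusted limma p was between 0.365 and 0.956 with an array left out. Receptors without overlap between groups numbered 3 to 11 with an array left out, beside 9.76% to 23.2% of all genes, and 11 within the set with both genotypes (31.4%, beside 30.4% of all genes), where only 4 arrays remain. The median over the receptors was 0.02 to 0.05 with an array left out; it was 0.068 with the striatal covariate and -0.0016 with the coarser sets as a fixed block. Of the 34 tested receptors other than Esrrg, 13 kept the sign of their difference under each setting in which they were tested, and 21 changed it under at least 1; no sign was called. With the filter at the 50th percentile 17 receptors were tested. The cause of these changes was not tested. No measure of signal over background was used, and the number of arrays limits the precision of all receptors.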
